A study of Mus musculus with 12 samples.

Results

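At 4% O2, 937 of the 12586 regions that HIF1A occupied in both of its peak lists had no ARNT peak in any list and no HIF1A peak at 20% O2 (7.44%, 95% Wilson interval 6.999 to 7.916). These 937 HIF1A sites without ARNT are described here. A region was a stretch of merged HIF1A peaks at 4% O2 that held a peak of both replicate lists. It was kept when no peak of the 4 ARNT lists and no peak of the 2 HIF1A lists at 20% O2 overlapped it by 1 bp or more. The sites were thus chosen by peak calls in these same lists. The presence of a HIF1A peak, its score, rank and width at 4% O2, and the distance to an excluding peak describe that choice and are not findings. Of the remaining regions, 274 (2.18%) had a HIF1A peak at 20% O2 and no ARNT peak, 4768 (37.9%) had an ARNT peak and no HIF1A peak at 20% O2, and 6607 (52.5%) had both.

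Binding was mapped by ChIP-seq, which sequences DNA recovered with an antibody, in N1E115, a mouse neuroblastoma line labelled as positive for NOS1, the neuronal nitric oxide synthase. Cells of this 1 line, with no genetic change named between groups, spent 3 days at 20% or 4% O2, each with 5% CO2 and at ambient pressure. The 8 ChIP samples made 4 groups of 2 (HIF1A or ARNT at 20% or 4% O2), and 4 input samples, 2 per oxygen level, served as controls for peak calling. The labels do not say whether the replicates came from separate cultures, and the lists hold binding and not expression, so the cell type could not be checked against its markers.

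HIF1A and ARNT are the subunits of the transcription factor HIF-1. In well-oxygenated cells prolyl hydroxylases of the EGLN family mark HIF1A for degradation through VHL, and at low oxygen HIF1A accumulates, pairs with ARNT and binds hypoxia response elements, whose core reads ACGTG or GCGTG. The pair drives genes of glycolysis, blood vessel growth, red cell production and mitophagy. ARNT also partners other proteins such as the aryl hydrocarbon receptor, and its paralogue ARNT2, for which no list was analysed here, is found in neural cells. In bulk chromatin, a site bound in fewer cells and a site bound more weakly in all cells cannot be told apart, and the absence of a call does not show the absence of ARNT.

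The sites at gene promoters show the range of sequence under these HIF1A peaks. The following 5 promoters were each overlapped by a HIF1A site without ARNT. Arap1, Rictor, Syne1 and Tuba8 were among the promoters whose sites had the highest HIF1A scores, and Egln2 encodes an oxygen-sensing prolyl hydroxylase. Each line gives the 250 bases before an annotated start, 5′ to 3′ on the gene's strand (RefSeq, GRCm38.p6, which is mm10), with every ACGTG and GCGTG on either strand in capitals (CACGT and CACGC are their reverse complements).
Arap1: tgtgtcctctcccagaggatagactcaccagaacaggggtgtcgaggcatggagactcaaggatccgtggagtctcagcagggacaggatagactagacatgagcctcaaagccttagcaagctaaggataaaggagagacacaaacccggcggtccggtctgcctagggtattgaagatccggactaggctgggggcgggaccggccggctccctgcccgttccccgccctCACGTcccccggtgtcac
Egln2: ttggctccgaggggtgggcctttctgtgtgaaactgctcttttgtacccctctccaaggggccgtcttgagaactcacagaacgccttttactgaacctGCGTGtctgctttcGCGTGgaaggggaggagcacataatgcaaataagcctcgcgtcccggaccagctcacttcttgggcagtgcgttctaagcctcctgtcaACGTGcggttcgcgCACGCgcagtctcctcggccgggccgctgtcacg
Tuba8: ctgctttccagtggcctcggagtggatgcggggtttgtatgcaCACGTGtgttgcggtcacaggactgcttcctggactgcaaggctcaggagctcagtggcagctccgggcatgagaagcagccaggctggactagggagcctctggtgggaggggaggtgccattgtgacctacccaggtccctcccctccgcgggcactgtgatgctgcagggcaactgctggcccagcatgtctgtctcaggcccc
Rictor: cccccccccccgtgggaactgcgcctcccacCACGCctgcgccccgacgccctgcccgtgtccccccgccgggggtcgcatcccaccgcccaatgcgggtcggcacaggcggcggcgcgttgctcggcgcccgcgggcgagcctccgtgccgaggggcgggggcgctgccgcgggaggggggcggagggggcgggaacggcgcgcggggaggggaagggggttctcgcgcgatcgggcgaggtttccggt
Syne1: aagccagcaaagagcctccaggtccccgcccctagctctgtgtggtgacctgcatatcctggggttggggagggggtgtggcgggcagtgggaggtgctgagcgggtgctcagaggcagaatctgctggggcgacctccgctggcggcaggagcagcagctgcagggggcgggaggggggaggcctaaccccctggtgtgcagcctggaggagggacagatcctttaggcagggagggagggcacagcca
The windows lie at chr7:101347819-101348068 (Arap1, + strand), chr7:27166803-27167052 (Egln2, - strand), chr6:121210484-121210733 (Tuba8, + strand), chr15:6708131-6708380 (Rictor, + strand) and chr10:5550693-5550942 (Syne1, - strand). The Egln2 site covered 215 of these bases and took in all 4 cores, 1 ACGTG and 3 GCGTG. The Arap1 site covered the last 84 bases, with the 1 ACGTG core. In Tuba8 the core is the palindrome CACGTG, which reads ACGTG on both strands, and it lay outside the 183 bases that the site covered. The 1 GCGTG core of Rictor also lay outside its site. Syne1 held no core in these letters although its site covered all 250 bases. A match of letters is a description and not a binding site. The promoter of the predicted gene Gm46609, the fifth that the naming rule took, held no core and is not printed.

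The same 5 sites differed in their signal and in what lay near them. Peak scores are those deposited by the authors, on a scale that the files do not name. At Arap1, a GTPase-activating protein for Arf, HIF1A scored 29.4 in replicate 1 and 30.5 in replicate 2 at 4% O2, and the nearest ARNT peak lay 15261 bp away. At Egln2 the scores were 22.8 and 17.1, with the nearest ARNT peak at 4664 bp and the nearest HIF1A peak of 20% O2 at 29339 bp. No other HIF1A region of 4% O2 lay in Egln2 or within 5 kb of it. At Tuba8, an alpha-tubulin gene, the scores were 25.3 and 16.8, and an ARNT peak lay at 1105 bp. At Rictor, the defining subunit of mTOR complex 2, they were 27.6 and 16.4, and an ARNT peak lay at 397 bp. Syne1 encodes a nuclear envelope spectrin-repeat protein, nesprin-1. Its site scored 39.3 and 13.4, with an ARNT peak 162 bp and a HIF1A peak of 20% O2 325 bp from its edge. Thus the Arap1 and Egln2 sites stood apart from ARNT by kilobases, whereas the Syne1 and Rictor sites lay beside ARNT peaks.

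HIF1A peaks without ARNT ranked below the other reproducible regions, and in replicate 2 also in the lower part of the list. Scores of the 937 sites had a median of 14.4 (2.87 to 62.9) in replicate 1 and 7.34 (2.07 to 30.5) in replicate 2. As percentile ranks within their own list, with 100 for the highest peak, these are medians of 54.7 and 22.7, against 83.4 and 52.6 over all 12586 regions. The mean of both ranks had a median of 38.1 (0.964 to 82.5), against 48.4 for sites without ARNT that were also called at 20% O2, 61.2 for sites with ARNT and no HIF1A peak at 20% O2, and 74.6 for sites with ARNT and a HIF1A peak at 20% O2. The sites were also narrower, with a median of 195 bp. The median was 243.5 bp for the regions without ARNT called at 20% O2 and 249 bp for those with ARNT and no HIF1A peak at 20% O2. A wider region meets an excluding peak more easily, so width is tied to the rule as well. Sorted by mean rank in steps of 10, 32 of 72 regions in the lowest step (44.4%, 33.5 to 55.9) lacked ARNT and a 20% O2 peak. That share fell through 10.8% between ranks 40 and 50 to 2 of 1834 between 80 and 90 (0.109%), and 0 of 1914 above 90, where the Wilson interval reaches 0.200%. Intervals on shares cover the counting of regions only, and regions are not replicates, so no p-value is given. The lists hold no read counts, so the depth behind a peak is unknown.

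**Figure D1:**
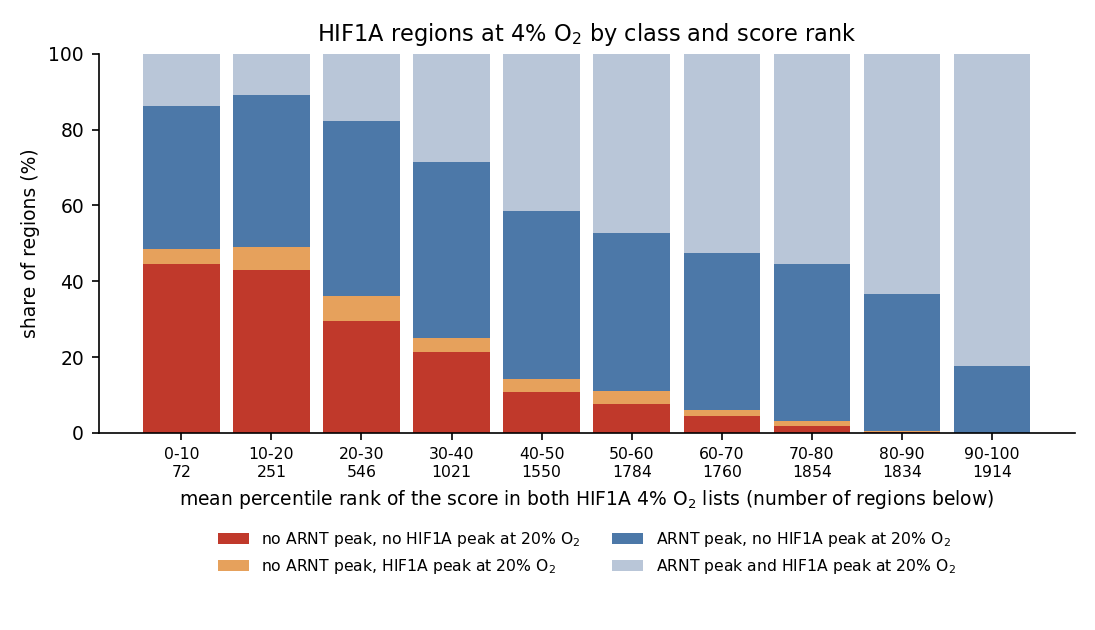
Share of HIF1A regions at 4% O2 in each of the 4 classes (y axis, percent, stacked) by mean percentile rank in steps of 10 (x axis, with the number of regions under each step). The class with no ARNT peak and no HIF1A peak at 20% O2 (red) runs from 44.4% in the lowest step to 0 of 1914 regions in the highest.

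**Figure D2:**
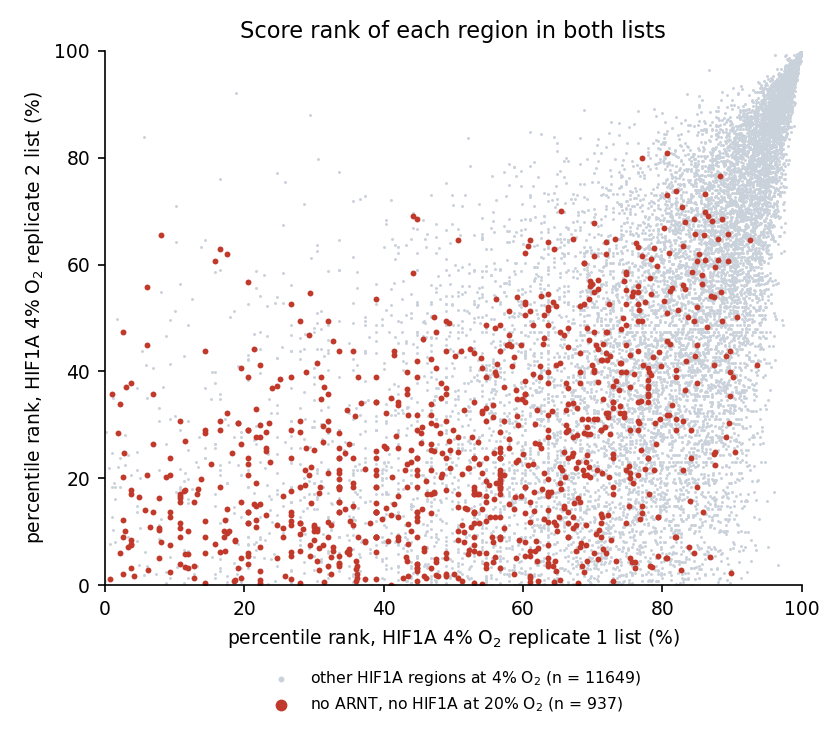
Percentile rank of each HIF1A region of 4% O2 in the replicate 1 list (x axis) and the replicate 2 list (y axis), with the 937 sites without ARNT in red and the other 11649 regions in grey. The red points sit mostly at low replicate 2 ranks (median 22.7) and spread more widely over replicate 1 (median 54.7).

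The 15 highest HIF1A sites without ARNT were each nearest to a different gene. Distances to genes run from a site's centre, and those to peaks from its edge. The highest of all (chr17:34965796-34966053) scored 42.0 and 25.1 in replicates 1 and 2 and lay 3434 bp from Hspa1a, which encodes the heat-inducible HSP70. Hspa1a has a near-identical neighbour, Hspa1b, so the gene assignment there is by distance alone. The third, at chr18:34954283-34954428, scored 37.1 and 22.1 and was centred 5 bp from an end of Hspa9, the mitochondrial HSP70, with an ARNT peak 184 bp away. Lrp1, an endocytic lipoprotein receptor, had the fourth, 154 bp from its end, with scores of 42.5 and 19.1. Olfm2, an olfactomedin-family secreted protein, held the fifth, with scores of 56.5 and 17.0.

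The next 10 sites had the following genes nearest. Prtg, an immunoglobulin-family receptor of the early embryo, held a site that scored 25.7 and 28.9. Lrrc4b, a synaptic adhesion protein, held one with scores of 38.1 and 19.4, 864 bp from a gene end. Opcml, a GPI-anchored IgLON adhesion protein, held one with scores of 39.5 and 18.9, far inside the gene at 478903 bp from its nearer end. The site nearest Ank3, which encodes ankyrin-G of the axon initial segment, scored 44.6 and 17.7 and lay outside the gene at 25551 bp. The other 6 of the 15 highest were nearest to Rtl1, Daam1, a formin that assembles actin, Dtwd2, Epcam, an epithelial adhesion protein, Tox, a nuclear HMG-box protein, and Pnpla1. Among these 15 sites mean ranks ran from 76.4 to 82.5. The Dtwd2 site was centred 17 bp from an end of the gene, and its edge lay 41 bp from a HIF1A peak of 20% O2, while its nearest ARNT peak was 223063 bp away. No theme was fixed for the highest sites, and these names describe single regions.

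How far the sites stood from an excluding peak varied widely. The nearest ARNT peak was at a median of 4854 bp (quartiles 574 and 20833 bp) and the nearest HIF1A peak of 20% O2 at 19073 bp. An ARNT peak lay within 500 bp of 219 sites (23.4%) and within 1 kb of 294 (31.4%). Counting both kinds, 239 sites (25.5%) had an excluding peak within 500 bp. Just inside the rule were a site at Ccdc58 and Fam162a (chr16:36072525-36073197), 3 bp from an ARNT peak, a site 29421 bp from Nos1 (chr5:117837337-117837499), 4 bp from a HIF1A entry of 20% O2, and a site at Rbm5, 19 bp from one. Just outside, among regions excluded by a single list of intervals, were those near Bahcc1, Ckap2l and Ubl4b. They overlapped an ARNT peak by 7, 12 and 12 bp. Regions that a 1 bp entry of HIF1A 20% O2 replicate 2 overlapped were left out of this ranking. Both HIF1A replicate 2 lists give positions of 1 bp, so a gap to an entry of that list at 20% O2 is measured to a summit. With windows around those positions in their place the sites numbered 972.

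**Figure D3:**
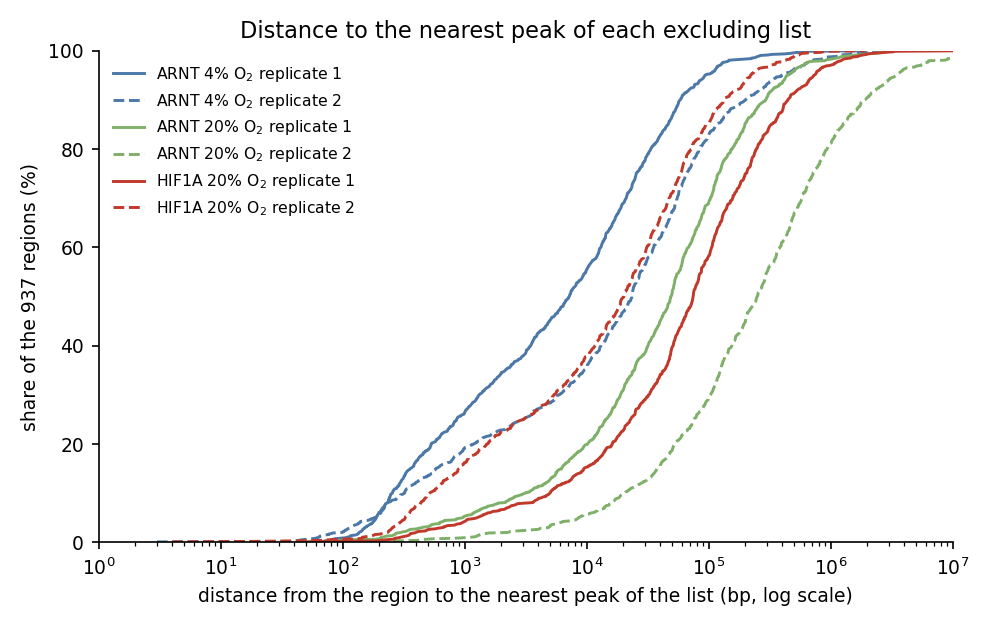
Cumulative share of the 937 sites (y axis, percent) by distance from the site's edge to the nearest peak of each of the 6 excluding lists (x axis, bp, log scale). The curve of ARNT at 4% O2 replicate 1 lies farthest left beyond about 500 bp, with a median of 7212 bp, and that of ARNT at 20% O2 replicate 2 farthest right, with a median of 250659 bp.

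The ARNT lists did not exclude sites evenly, and they differed in length. At 4% O2 they held 24942 peaks in replicate 1 and 9920 in replicate 2, and at 20% O2 7252 and 1808. The HIF1A lists at 20% O2 held 5393 and 13386. Of the 12586 regions, ARNT at 4% O2 had a peak in both lists at 5776 (45.9%), in replicate 1 alone at 4635 (36.8%) and in replicate 2 alone at 878 (6.98%). Only 86 regions had an ARNT peak in the ARNT lists at 20% O2 alone. The HIF1A lists at 20% O2 excluded a further 274 regions that had no ARNT peak. The sets by ARNT list at 4% O2 lay in different places. Among regions with no HIF1A peak at 20% O2, 19.5% of the 1639 with an ARNT peak of 4% O2 in replicate 1 alone were within 1 kb of a gene end, against 42.3% of the 737 in replicate 2 alone and 34.8% of the 2383 in both. Per the file headers, ARNT at 4% O2 replicate 2 was sequenced on another flow cell than the replicate 1 samples of both antibodies, which shared a lane. Whether the flow cell plays a part was not tested. Without ARNT 4% O2 replicate 1 the rule gave 2434 sites, without ARNT 4% O2 replicate 2 it gave 1664, and with a single HIF1A list at 4% O2 it gave 1900 (replicate 2 alone) or 17094 (replicate 1 alone).

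Sites without ARNT lay less often at gene ends than sites with ARNT, with all lists in use. Of the 937 sites, 227 (24.2%, 21.6 to 27.1) were within 1 kb of an end of a protein-coding gene, against 1463 of 4768 (30.7%) of the regions with ARNT and no HIF1A peak at 20% O2, a difference of -6.46 percentage points (95% Newcombe interval -9.41 to -3.33). With the latter weighted to the ranks of the former, their share was 35.4%. Without ARNT 4% O2 replicate 2 the difference turned to 3.23 points (0.618 to 5.89), and among HIF1A peaks at or above the median score it was 0.266 points (-7.86 to 9.84), so its direction rests on these choices. Against the regions without ARNT that were also called at 20% O2 the difference was 0.504 points (-5.49 to 5.96). Inside protein-coding genes lay 505 sites (53.9%), against 51.9% of the regions with ARNT and no HIF1A peak at 20% O2, a difference of 2.03 points whose interval reached 0 (-1.47 to 5.50). From all regions with ARNT the difference was 3.82 points (0.490 to 7.12). From the regions without ARNT also called at 20% O2 (46.7%) it was 7.18 points (0.457 to 13.8). Weighted to the sites' ranks, that 46.7% became 51.1%. Another 89 sites (9.50%) lay inside long noncoding RNA genes, and 274 (29.2%) lay outside genes and over 5 kb from any gene end. Over all 12586 regions these shares were close, at 9.63% and 29.5%. Within 1 kb of a tRNA gene were 2 sites (0.213%), close to the 10 of 4768 regions with ARNT and no HIF1A peak at 20% O2 (0.210%, difference 0.00372 points, -0.231 to 0.573). In the class without ARNT that was also called at 20% O2 there were 5 of 274 (1.82%), and the sites differed from it by -1.61 points (-3.99 to -0.427). The median distance to a gene end was 10328 bp, close to the 10056 bp of all regions with ARNT.

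**Figure D4:**
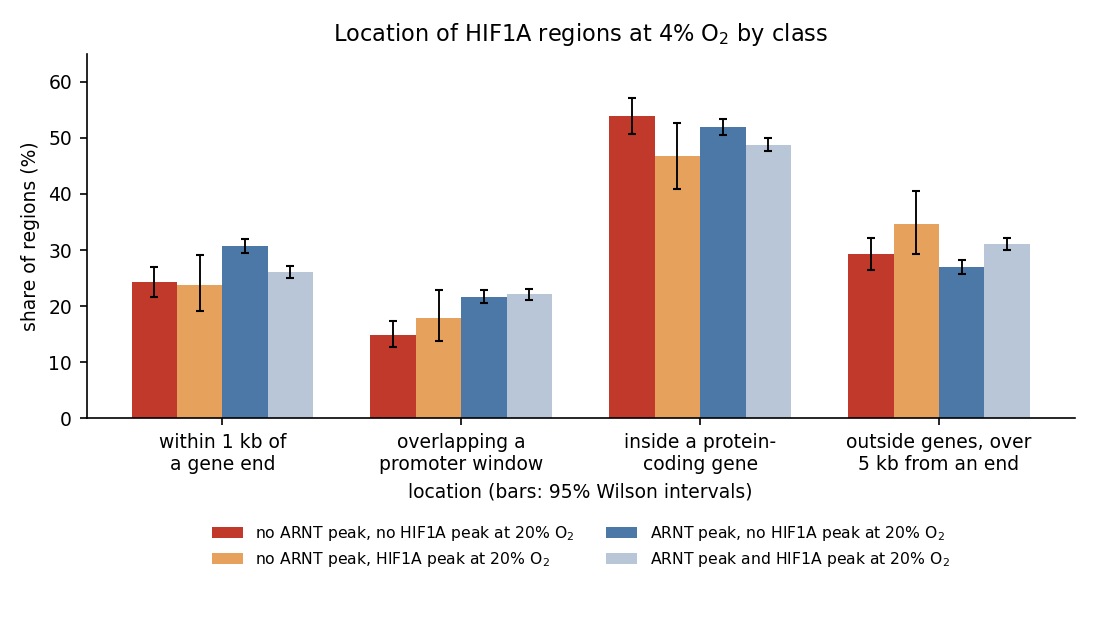
Share of regions (y axis, percent, bars from 0 with 95% Wilson intervals) at each location (x axis) for the sites without ARNT (red) and the other 3 classes of HIF1A regions at 4% O2. Within 1 kb of a gene end the sites without ARNT stand at 24.2% and those with ARNT and no HIF1A peak at 20% O2 at 30.7%, a difference that turned to 3.23 points without ARNT 4% O2 replicate 2.

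Few of the sites lay close to another. The median distance from a site's centre to that of the nearest other site was 363081 bp, and 8 lay within 1 kb of another. No comparison is given for these distances. Measured between centres, a region with ARNT lay within 1 kb of 167 sites (17.8%, 15.5 to 20.4). As the rule chose sites by their lack of an overlapping ARNT peak, these distances to ARNT describe that choice and are not findings. By the same measure, 13.0% (12.0 to 13.9) of regions with ARNT and no HIF1A peak at 20% O2 had another region with ARNT that close, as had 12.4% (9.02 to 16.8) of the regions without ARNT called at 20% O2. The median distance to a region with ARNT was 18474 bp for the sites and 20401 bp for regions with ARNT and no HIF1A peak at 20% O2, with intervals of 15520 to 21642 and 18829 to 21631 bp that overlap. Of the genes with a site inside or within 5 kb, 672 had 1, 49 had 2, 2 had 3 and 1 had 4. Arhgap26, a GTPase-activating protein, had the 4, along a gene of 774669 bp that also held 7 regions with ARNT. Megf11, a transmembrane protein of retinal neuron spacing, and Adora1, the adenosine A1 receptor, had 3 each. Adora1 is a short gene by comparison (36243 bp) and held 3 regions with ARNT as well. Of the genes with 2, Cdv3 (12734 bp) had no region with ARNT, and the others named by the rule were Olfm2, Lrrc4b, Opcml, Slc44a1, Ptprj and Msra.

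Of 21631 protein-coding genes, 474 had a HIF1A site without ARNT within 5 kb of an end, which is 2.19%, and 724 (3.35%) had one inside or within 5 kb. By comparison 22.7% of genes had a region with ARNT within 5 kb of an end, and 0.643% had a region without ARNT that was also called at 20% O2. Of the 474 genes, 219 (46.2%) had a region with ARNT as well and 255 had none. Of 348 genes in 17 lists chosen for hypoxia, neuroblastoma and neurons, 19 had a site (5.46%), in 10 lists. This count carries no test. It moved from 2 with HIF1A peaks at or above the median score to 153 with HIF1A 4% O2 replicate 1 alone.

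On the lists of HIF-1 target genes, more genes had a region with ARNT than a site without it. Over all protein-coding genes the shares were 22.7% and 2.19%. Each of the glycolysis, oxygen-sensing, mitophagy and angiogenesis lists stood above both shares. The sites without ARNT were at 2 genes per list, and no test was made. Of 21 glycolysis genes, 18 had a region with ARNT and 2, Pfkfb3 and Slc2a3, a site without (9.52%, beside 2.19% of all genes). Pfkfb3 makes and breaks down the allosteric activator of phosphofructokinase, and its site scored 11.0 and 6.91 in the HIF1A replicates. Slc2a3, the neuronal glucose transporter GLUT3, had a site with scores of 8.41 and 2.45 within 5 kb of an end, and 2 sites in all inside or within 5 kb. Both are weak in replicate 2, at ranks of 20.3 and 0.432, and both genes held regions with ARNT at other places inside or within 5 kb, 4 and 8 of them.

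Of 14 oxygen-sensing genes, 7 (50%) had a region with ARNT and 2 (14.3%), Egln2 and Ankrd37, a site without. At Ankrd37, a hypoxia-inducible ankyrin-repeat gene, the site scored 23.4 and 10.5 and lay 798 bp from an ARNT peak, and the gene also had a region with ARNT at rank 99.9. Of the list genes that had a site, Egln2 had the second highest mean rank (69.1) and no region with ARNT. Of 12 mitophagy and mitochondrial genes, 10 (83.3%) had a region with ARNT. A site without ARNT stood at 2 (16.7%), and both are among the 10. Bnip3l, a mitophagy receptor of the outer membrane, had a site at scores of 9.35 and 7.05, 328 bp from an ARNT peak. Fam162a, a hypoxia-induced mitochondrial protein, had the site 3 bp from an ARNT peak, at scores of 14.0 and 5.27. Of 18 genes of angiogenesis, pH and iron, 13 (72.2%) had a region with ARNT. A site without ARNT stood at 2 (11.1%), and both are among the 13. Ero1a, the oxidase of disulfide formation in the endoplasmic reticulum, had one at 17.1 and 2.48, 223 bp from an ARNT peak. Vegfb, a vascular growth factor, had one at 12.5 and 8.42, 244 bp from an ARNT peak. Ldha, Pgk1, Bnip3, Egln3, Vegfa, Nos1, Hif1a and Arnt had none inside or within 5 kb, and apart from Nos1 each had 1 to 5 regions with ARNT there.

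Neuroblastoma arises from the sympathoadrenal lineage. Of 20 transcription factors of that lineage, 3 had a site (15%, beside 2.19% of all genes). Regions with ARNT also stood above their share of all genes there, at 9 of 20 (45%, beside 22.7%). Among the 3 were Phox2a, which encodes a homeodomain factor of autonomic neurons, and Insm1, a zinc-finger factor of neuroendocrine cells. The Phox2a site, inside the gene, scored 12.8 and 12.1, with the nearest ARNT peak at 3343 bp. Phox2a had no region with ARNT inside or within 5 kb. The Insm1 site scored 14.2 and 5.37, 198 bp from an ARNT peak, and the gene also had 1 region with ARNT inside or within 5 kb. Of 15 catecholamine genes, 7 (46.7%) had a region with ARNT and 1 (6.67%), Chgb, a site without. Chgb encodes a granin of secretory granules. Its site scored 19.8 and 7.34, 85 bp from the gene's start, with the nearest ARNT peak at 28542 bp.

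Of 27 synaptic vesicle genes, 9 (33.3%) had a region with ARNT and 3 (11.1%) a site without. Over all protein-coding genes these shares were 22.7% and 2.19%. Syt11, a synaptotagmin, had the highest of all list genes, at scores of 29.5 and 16.0 and a mean rank of 71.6, with an ARNT peak 382 bp away. Cplx2, a complexin that regulates vesicle fusion, had one at 20.2 and 7.34, 189 bp from an ARNT peak. Unc13a, a vesicle priming factor, had one at 12.8 and 9.40, 756 bp from an ARNT peak. Syt11 also had 1 region with ARNT inside or within 5 kb, and Cplx2 and Unc13a had 2 each. Of 24 voltage-gated potassium channel genes, 5 (20.8%) had a region with ARNT and 1 (4.17%), Kcnc4, a site without. The Kcnc4 site scored 30.9 and 8.56, 3722 bp from an ARNT peak. Of 21 calcium and sodium channel genes, 4 had a region with ARNT and 1, the sodium channel subunit Scn3b, a site without. The Scn3b site scored 30.9 and 10.3, 40 bp from a gene end and 683 bp from an ARNT peak. Of 25 immediate early genes, 17 (68%) had a region with ARNT and 2 (8%) a site without. Jund, an AP-1 subunit, had one at 11.6 and 7.71, 1628 bp from an ARNT peak. Btg2, an antiproliferative gene, had one at 7.96 and 9.52, 240 bp from an ARNT peak. Kcnc4, Scn3b, Jund and Btg2 each also had a region with ARNT inside or within 5 kb. Lists of postsynaptic scaffolds (19 genes), axon guidance (32), cadherins and contactins (21), nitric oxide and cGMP (14), the aryl hydrocarbon receptor pathway (10), ribosomal proteins (30) and other tissues (26) had none within 5 kb of an end. Where lists are short, 0 is near what 2.19% of all genes gives.

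Promoters under sites without ARNT held the ACGTG core less often than promoters under sites with ARNT. Sequence was at hand for promoter windows from 250 bases before to 50 after an annotated start, on all chromosomes used but 18. Of 897 sites, 134 (14.9%) overlapped such a window, against 21.7% of regions with ARNT and no HIF1A peak at 20% O2, a difference of -6.74 points (-9.23 to -4.00). They overlapped 157 windows of 145 genes, so some windows share a site or a gene. The intervals on motif shares count each window as separate and do not allow for this. Motifs were searched on both strands, and every CACGTG also counts as ACGTG. The ACGTG core stood in 47 of 157 windows (29.9%, 23.3 to 37.5), against 45.1% of windows under regions with ARNT and no HIF1A peak at 20% O2, a difference of -15.1 points (-22.3 to -7.07), and 19.8% of all 32619 windows. With the windows under ARNT weighted to the sites' ranks their share was 40.4%. Within the bases actually covered the shares were 23.6% and 39.2%, over stretches with medians of 140 and 192 bp. Per kb covered, ACGTG stood 1.72 and 2.43 times. Without ARNT 4% O2 replicate 2 the difference was -3.33 points (-9.16 to 2.65). The sites without ARNT that were also called at 20% O2 stood at 28.1%, and the difference from them was 1.87 points (-12.5 to 14.4).

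The other core, GCGTG, did not separate the classes beyond counting error. It stood in 68.2% of the 157 windows and in 69.7% of those under ARNT and no HIF1A peak at 20% O2 (difference -1.52 points, -9.56 to 5.74), while all windows held it at 32.6%. The windows of both classes were rich in G and C: the median GC content was 63.7% under sites without ARNT and 63.3% with ARNT, against 53.0% of all windows, and the median number of CpG was 24, 24 and 7. The E-box CACGTG, a palindrome that MYC and clock factors bind, stood in 10.2% against 16.8%, and in 7.20% of all windows. The CCAAT box of NF-Y stood in 29.3% against 40.5%, a difference of -11.2 points (-18.3 to -3.23), and in 37.6% of all windows. GGGCGG, the GC box of SP factors, stood in 69.4% against 71.1%, and in 35.9% of all windows.

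The cAMP response element and the AP-1 site stood in a smaller share of these windows than of those under the 274 regions without ARNT that were also called at 20% O2, over few windows. TGACGTCA, the element that CREB and ATF factors bind, stood in 1 of 157 windows (0.637%), against 8 of 57 (14.0%), a difference of -13.4 points (-24.7 to -6.06), and in 1.80% of all windows. TGANTCA, the site that FOS and JUN proteins bind, stood in 8 of 157 (5.10%) against 10 of 57 (17.5%), a difference of -12.4 points (-24.5 to -3.44), and in 7.85% of all windows. Within the covered bases the TGANTCA shares were 4.46% (2.18 to 8.92) and 8.77% (3.81 to 18.9), with overlapping intervals, and the TGACGTCA shares were 0.637% and 12.3%. The covered stretches differed in length, with medians of 140 and 168 bp. Against regions with ARNT and no HIF1A peak at 20% O2 neither differed beyond its interval, at -0.947 points (-1.95 to 1.99) for TGACGTCA and 0.662 points (-2.14 to 5.41) for TGANTCA. The TGACGTCA difference was -8.48 points (-27.7 to 0.622) without HIF1A 4% O2 replicate 1. The interval of the TGANTCA difference reached 0 without either HIF1A 4% O2 list, at -1.47 and -0.837 points, and without HIF1A 20% O2 replicate 2, at -8.75 points.

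**Figure D5:**
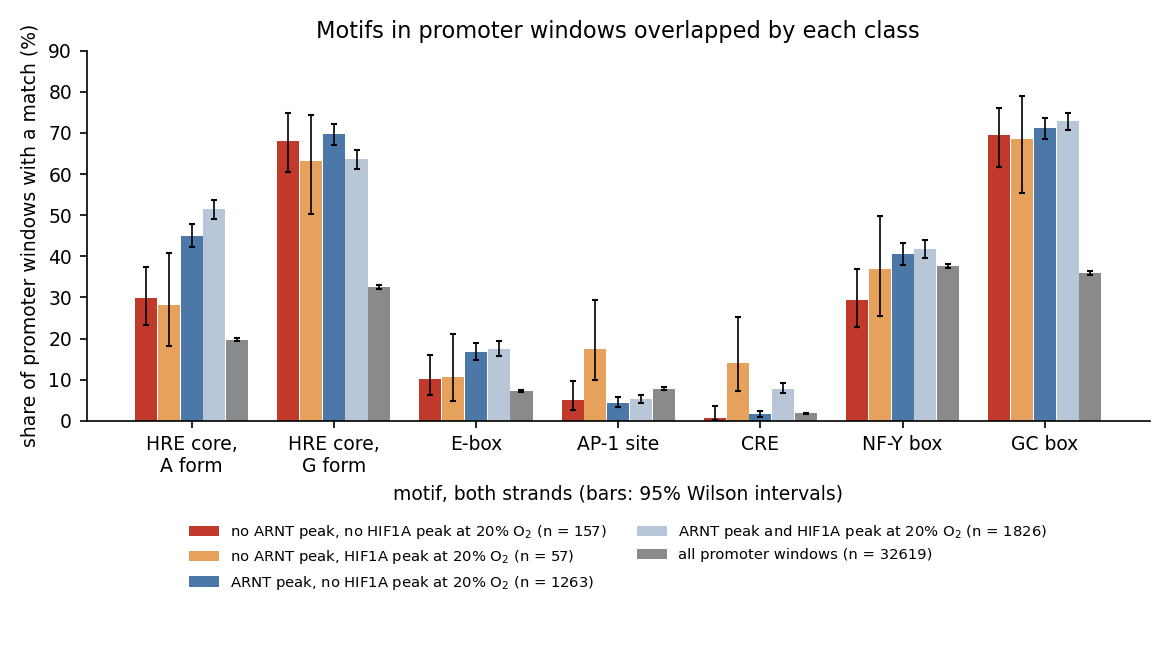
Share of promoter windows (y axis, percent, bars from 0 with 95% Wilson intervals) that held each motif on either strand (x axis), for windows under the 4 classes of region and for all windows. The A form of the hypoxia response element core, ACGTG, stands at 29.9% under sites without ARNT (red) and at 45.1% under sites with ARNT and no HIF1A peak at 20% O2, while the G form, GCGTG, stands at 68.2% and 69.7%.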

How the data were processed

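The 8 deposited lists, of HIF1A and ARNT ChIP samples, were used, and the 4 inputs entered only through the authors' peak calling. The submitters' processing notes name MACS2, BWA, Picard and build mm10, without versions. Per the sample names in the files, peaks were called by sample, HIF1A replicate 2 against input 5 and the others against input 4. Each deposited list gives a position and a score per peak, the authors' own value. Both HIF1A replicate 2 lists hold 1 bp positions, from reads of combined runs per the labels' design text. The others hold intervals.

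HIF1A 4% O2 peaks that overlapped by 1 bp or more were merged. Regions were sorted by overlap with the other 6 lists and ranked by percentile of score within each list. Genes on chromosomes 1 to 19 and X came from RefSeq GRCm38.p6. That gene table has no strand, so distances run to either gene end, and promoter windows came from the promoter table, which has strand. All 349 list entries (348 genes) matched. Computation used Python 3.11.15, pandas 2.3.3, scipy 1.17.1 and statsmodels 0.14.6. Code was checked on simulated data. Shares carry 95% Wilson intervals, differences Newcombe intervals, and no test was run.

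The sites and gene lists were chosen with earlier results of these data known. Named genes were the 15 sites of highest mean rank, list genes within 5 kb (up to 8 per list), the 10 genes with most sites, the 6 highest sites within 1 kb of a gene end, 5 promoters, 8 preset genes, and 3 regions on either side of the rule's threshold. Not every gene that the rule takes is reported here. Egln2's promoter was added to the printed ones as a list gene. Alternatives were other overlaps, margins, summit windows, score filters, gene distances and leaving out each list. The weighting to the sites' ranks was chosen after seeing the data.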

Additional observations from a re-analysis of the deposited data

How the results depend on the processing

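Peak calls set what counts as a site, and without read counts a missed ARNT peak and an absent one cannot be told apart. No paired analysis was possible because no result comes from a test between samples. The main results were counts, shares, medians and ranks as well as differences between classes. Of their values under the alternatives, 135 stayed close to those reported or, for a difference, on its side of 0. Another 47 moved, 9 differences had intervals that reached 0, and 2 differences reversed.

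With HIF1A peaks at or above the median score there were 103 sites at a median mean rank of 66.9, 29.1% near gene ends, 46.6% inside genes, 61 genes, 2 list genes, and ACGTG in 41.2% of windows. The difference near gene ends reversed to 0.266 points, and the differences in ACGTG (-9.99), TGACGTCA (-18.2) and TGANTCA (-18.2) had intervals that reached 0, with fewer sites. When only reproducible regions excluded, there were 4945 sites at a median rank of 50.3, 2149 genes and 76 list genes, and the TGANTCA difference was -5.10 points. With no excluding peak within 2 kb there were 540 sites, 226 genes, 6 list genes and a median distance of 14017.5 bp, and within 500 bp 11 list genes. Genes within 1 kb numbered 253 (8 on lists), within 20 kb 1003 (35), and inside or within 5 kb 724. At the sites' ranks the difference near gene ends was -11.2 points.

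Leaving out each list in turn gave 937 to 17094 sites, 17.1% to 31.9% near gene ends, 50.5% to 55.8% inside genes, a median distance of 6080 to 15706.5 bp, a median rank of 20.5 to 46.8, 474 to 4944 genes, 19 to 153 list genes and ACGTG in 21.0% to 41.0% of windows. The differences ran from -16.1 to 3.23 points near gene ends (reversed without ARNT 4% O2 replicate 2), -22.1 to -3.33 for ACGTG, -22.0 to -8.48 for TGACGTCA and -12.8 to -0.837 for TGANTCA. Where no reason is named, the cause was not tested.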

Other observations

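Chromosome 18 held 40 sites without ARNT among its 269 HIF1A regions of 4% O2 (14.9%, 95% Wilson interval 11.1 to 19.6), against 7.44% over all chromosomes. It was singled out after its value was seen. From the share of sites at each step of 10 in rank, 25.2 would stand there, so the count was 1.59 times that. On this chromosome 76.2% of HIF1A regions had a peak in ARNT 4% O2 replicate 1 and 46.8% in replicate 2, against 82.7% and 52.9% over all regions. At the other end, chromosome 12 held 28 of 601 (4.66%, 3.24 to 6.65). Chromosomes carry no replicate here, and no test of the difference was made.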
